A study of Mus musculus with 6 samples.

Results

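The genes described here are 10 lipid handling genes of the PPAR and LXR pathways in mouse bone-marrow-derived macrophages: the receptor genes Pparg, Rxra and Nr1h3, the fatty acid genes Fabp4, Fabp5, Cd36 and Lpl, and the cholesterol genes Abca1, Abcg1 and Apoe. They were taken by gene symbol from the 16906 genes of the deposited table, and all 10 passed the filter on low counts. Marrow cells of wild-type C57BL/6 mice had been grown for 7 days in medium with serum and 10 ng/ml of macrophage colony-stimulating factor (M-CSF). Both groups then received exosomes, small vesicles shed by cells, from epithelial cells. The stretched group (3 libraries, stretched 1 to 3) received exosomes of cells cyclically stretched for 6 h, and the static group (3 libraries, static 1 to 3) received exosomes of cells that had not been stretched. The labels give 100 µg/ml and 12 h for the exosome exposure, state no source or species of the epithelial cells, and include no group without exosomes. Whether replicates are separate mice or cultures is not said, so the p-values below describe how far these libraries spread, a spread that may be technical.

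PPAR gamma, the product of Pparg, is a nuclear receptor that binds fatty acids and their derivatives, and LXR alpha, the product of Nr1h3, is one that binds oxidised sterols. Each binds DNA as a pair with a retinoid X receptor such as the product of Rxra, at repeats of the hexamer AGGTCA or close variants of it. PPAR gamma pairs favour repeats separated by a single base (DR1), and LXR pairs favour repeats separated by 4 bases (DR4). In macrophages PPAR gamma is known for raising genes of fatty acid uptake, and the LXRs are known for raising genes of cholesterol export.

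The promoter of Abca1, which encodes the main exporter of cholesterol to lipid-poor apolipoproteins, is shown because it carries the 1 DR4 match among the members' promoters. The sequence is the 120 bases before the annotated start at 53159895 on the minus strand (GRCm38.p6, chr4:53159896-53160015, from RefSeq), where the RefSeq gene model also extends further upstream, to 53159988. Capitals mark the match, which reads as the motif NGGTNANNNNNGGTNA on the opposite strand and begins 67 bases before the start. The bases before the start of Nr1h3 at 91195116 (minus strand, chr2:91195117-91195196) are shown because the transcript annotated to begin there held a smaller share of Nr1h3 counts in stretched libraries, as described below. The RefSeq gene model of Nr1h3 also extends further upstream, to 91202829. XM_006499166.2, an Nr1h3 transcript with a larger share in stretched libraries, has no annotated start here. The Nr1h3 bases shown hold no match to the motifs searched and so no capitals.
Abca1: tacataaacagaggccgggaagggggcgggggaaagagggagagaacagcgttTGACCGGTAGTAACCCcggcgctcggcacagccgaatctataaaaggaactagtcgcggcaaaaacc
Nr1h3: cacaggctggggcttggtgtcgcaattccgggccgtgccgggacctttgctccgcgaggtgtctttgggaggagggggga
Promoter windows (250 bases before to 50 after a start) were found for 6 of the 10 members, 12 windows in all. Both strands were searched. The DR4 motif NGGTNANNNNNGGTNA was in 0.718% of all 32851 windows and in 1 of the 12. The DR1 motif NGGTNANNGGTNA was in 1.10% of all windows and in 0 of the 12. The single hexamer AGGTCA was in 16.3% of all windows and in 4 of the 12. Those belong to Pparg, Rxra and Cd36, and not to Abca1, which holds the DR4 match. A match describes letters only, and no match says only that these letters are not in these windows.

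Library totals ran from 16984600 to 17626000 estimated counts. All 12 macrophage identity markers were expressed, with a summed level between 19350 and 30393 CPM (the count as a rate of the library total after TMM scaling). Static 3 stood apart from the other static libraries: its neutrophil markers summed to 15154 CPM against 4971 and 6716, and its monocyte markers to 5104 CPM against 2423 and 2416. The stretched libraries held 6375 to 12174 CPM of neutrophil markers and 4693 to 4945 CPM of monocyte markers, so on the monocyte list static 3 lay with them. Lung epithelial markers, of which 1 of 4 tested rose, summed to 27.4 to 44.9 CPM in stretched and 13.5 to 20.4 CPM in static libraries. The largest part in every library was Epcam, at 13.4 to 36.9 CPM in stretched and 8.54 to 12.0 CPM in static libraries. Hopx held 4.87 to 5.92 CPM in stretched and 1.75 to 4.52 CPM in static libraries. Cdh1 (1.14 to 3.16 against 1.12 to 2.77 CPM) and Ager (1.08 to 1.70 against 1.07 to 1.76 CPM) overlapped between groups. Krt8 and Krt18 reached 0.460 and 0.518 CPM at most. The lung markers Sftpb and Nkx2-1 reached 0.213 and 0.230 CPM at most, and 3 of the 13 listed markers are not analysed here. The part of epithelial RNA in the results was not tested. Each result is therefore also given without static 3 where that changes it. In bulk RNA, fewer cells of a type and less RNA per cell cannot be told apart.

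Across the pathway, the receptor Pparg was lower and the fatty acid binding genes Fabp4 and Fabp5 and the transporter Abca1 were higher in macrophages given exosomes of stretched cells. Of the 10 members 3 rose, 1 fell and 6 did not pass (edgeR quasi-likelihood test, adjusted p under 0.05 over all 12892 tested genes), where 6.55% of all tested genes rose and 5.38% fell. The libraries of the groups did not overlap in CPM for 6 members, as for 36.7% of tested genes. The members' median log2 fold change was 0.13, against -0.002 over all tested genes. When libraries were scaled by size alone, the median of all genes moved to -0.19 and the share of calls that were higher went from 54.88% to 30.01%, but each of the 10 members kept its direction. Members that rose numbered 2, 1, 3, 1, 0 and 3, and members that fell 1, 0, 1, 1, 0 and 3, with stretched 1, 2 and 3 and static 1, 2 and 3 left out in that order. Where these counts were 0, edgeR gave 2 lower members at an unadjusted p under 0.05 without stretched 2 (11.0% of tested genes), and 4 higher (11.7%) and 2 lower (10.1%) without static 2, a fit in which no gene of the table passed. With all libraries 31.7% of tested genes had an unadjusted p under 0.05. In the same order of left-out libraries, the genes of the whole table that rose numbered 133, 33, 556, 64, 0 and 2095, and those that fell 28, 3, 258, 24, 0 and 2011. DESeq2 called 3 members higher and 3 lower with all libraries, where it called 10.8% of tested genes higher and 9.96% lower. A fit with the replicate number as a block called 3 members higher and 2 lower, where 5.86% of tested genes rose and 3.16% fell. Without static 3, 16.1% of tested genes rose and 15.4% fell.

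**Figure D1:**
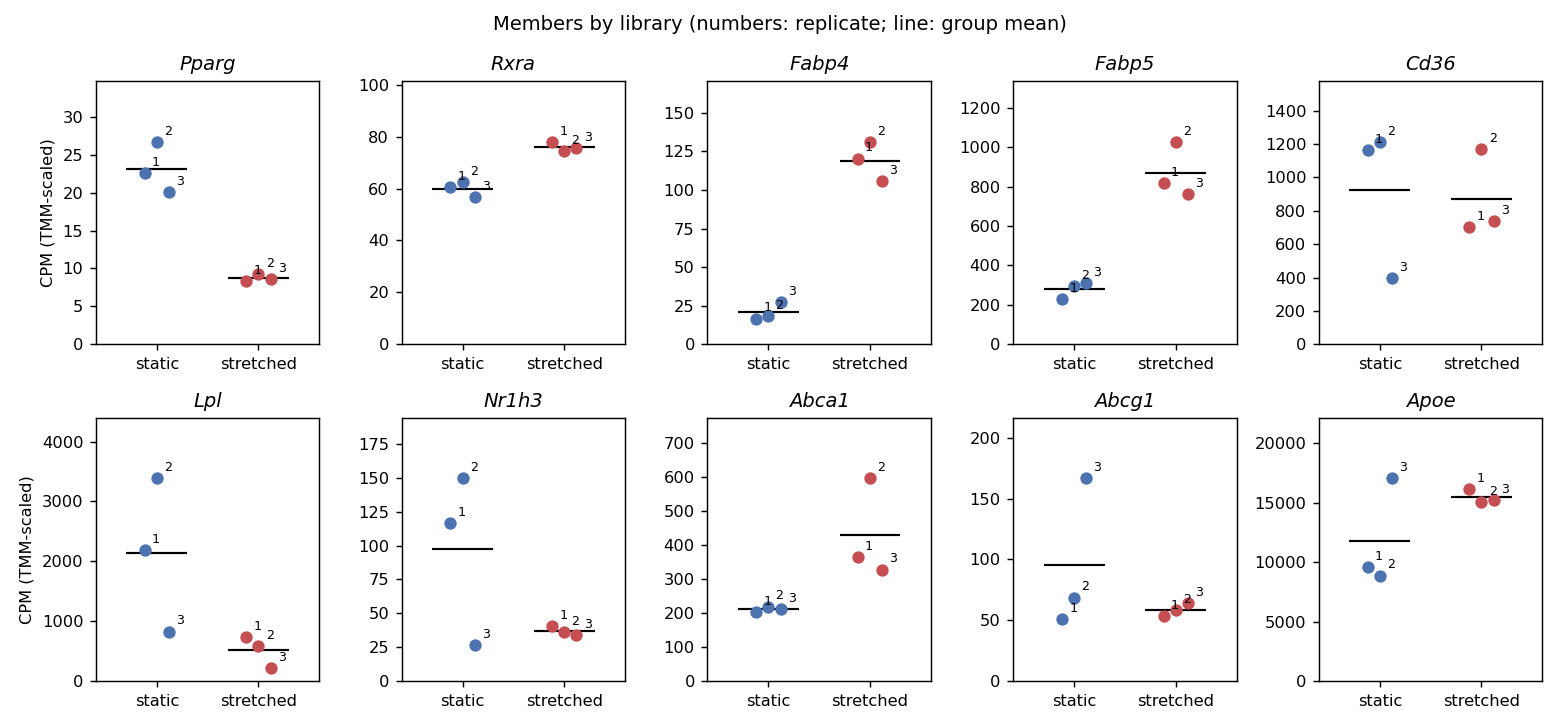
Level of each of the 10 genes in CPM (vertical axes, each from 0) in the static and stretched libraries; points are libraries with their replicate number and lines are group means. Static 3 lies near the stretched libraries for Nr1h3 (26.7 CPM) and Lpl (825 CPM) and above all others for Abcg1 (167 CPM) and Apoe (17043 CPM).

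Pparg (gene identifier 19016, chromosome 6, 115360879 to 115490404) was a low-abundance gene and fell. It held 8.37, 9.26 and 8.57 CPM in stretched 1 to 3 and 22.6, 26.7 and 20.1 CPM in static 1 to 3, on 136 to 489 estimated counts per library. All stretched libraries lay below all static ones, static 3 included, and they differed little among themselves. The group means were 8.73 ± 0.466 and 23.1 ± 3.37 CPM (SD, n = 3), a 2.65-fold fall and a log2 fold change of -1.41 ± 0.16 (SE, edgeR adjusted p = 0.0122; 9.46e-10 to 0.0541 over all alternatives). The call was lost without stretched 2 (adjusted p = 0.0531) and without static 2 (adjusted p = 0.0541).

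Rxra (gene identifier 20181, chromosome 2, 27676445 to 27763319), the shared partner of both receptors, held 78.1, 74.3 and 75.7 CPM in stretched 1 to 3 and 60.6, 62.6 and 56.8 CPM in static 1 to 3. The groups did not overlap, but the difference did not pass (log2 fold change 0.34 ± 0.11, 95% interval 0.08 to 0.61, edgeR adjusted p = 0.0871). Its value was 0.15 when libraries were scaled by size alone. Its direction was thus opposite to that of Pparg, but only Pparg passed.

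Fabp4 (gene identifier 11770, chromosome 3, 10204342 to 10208616), a cytosolic fatty acid carrier and textbook PPAR gamma target, changed most among the members that passed. It held 120.4, 131 and 106 CPM in stretched 1 to 3 and 16.5, 18.2 and 27.1 CPM in static 1 to 3. The lowest stretched library was well above the highest static one. Fabp4 rose 5.78-fold, from 20.6 ± 5.68 CPM (SD, n = 3) to 119 ± 12.8 CPM, a log2 fold change of 2.53 ± 0.22 (edgeR adjusted p = 0.0108). The adjusted p was 0.0516 without static 2.

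Fabp5 (gene identifier 16592, chromosome 3, 10012585 to 10016610), a carrier of the same family that delivers fatty acids to PPAR delta in some cells, rose too. Stretched 1 to 3 held 817, 1028 and 762 CPM and static 1 to 3 held 230.2, 294 and 311 CPM. The groups were apart again, with static 3 only slightly above static 2. The rise was 3.12-fold, or 1.64 ± 0.20 on the log2 scale (edgeR adjusted p = 0.0131), and it missed the threshold without stretched 2 (adjusted p = 0.0539), static 1 (adjusted p = 0.0503) or static 2 (adjusted p = 0.0553). Fabp5 and Fabp4 are neighbours on chromosome 3. The protein-coding genes annotated between them, Pmp2 and Fabp9, are not analysed here.

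Fabp4 and Lpl are also expressed by fat cells and by cells of vessel walls. The 10 adipocyte markers summed to 23.3 to 25.3 CPM in stretched and 26.4 to 39.2 CPM in static libraries. Most of this was Lipe, a lipase gene, at 22.3 to 37.6 CPM. Of the others, 3 are not analysed here, Plin4 reached 0.905 CPM and Adipoq 0.479 CPM at most, and Plin1 and Cfd were at or below 0.0602 and 0.0681 CPM in every library. Endothelial markers were present, with summed levels of 447, 373 and 163 CPM in stretched 1 to 3 and 343, 289 and 159 CPM in static 1 to 3, and 0 of the 12 passed in edgeR. That sum was lowest in stretched 3 and static 3 of their groups. Lpl was also lowest in those libraries, and Fabp4 was lowest in stretched 3 but highest in static 3 within its group. Stromal markers summed to far more, 5024 to 7120 CPM in stretched and 3946 to 5704 CPM in static libraries, and 0 of the 10 passed in edgeR. The part of fat, vessel wall or stromal cells in the levels of Fabp4 and Lpl was not tested.

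Cd36 (gene identifier 12491, chromosome 5, 17781690 to 17888959), the scavenger receptor that takes up long-chain fatty acids and oxidised lipoprotein, did not follow Fabp4. It held 704, 1170.1 and 740.4 CPM in stretched 1 to 3 and 1166, 1214 and 397 CPM in static 1 to 3. The groups overlapped, with stretched 2 at the level of static 1 and 2 and static 3 the lowest of all. The log2 fold change was -0.09 ± 0.42 (95% interval -1.08 to 0.90, edgeR adjusted p = 0.911), and its sign depended on the libraries used. It was -0.45 without static 3, 0.11 without static 1, 0.15 without static 2, 0.04 without stretched 1 and 0.04 with the replicate number as a block.

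Lpl (gene identifier 16956, chromosome 8, 68880555 to 68906932), the lipoprotein lipase that frees fatty acids from triglyceride-rich particles, went the opposite way from Fabp4. Stretched 1 to 3 held 729, 585 and 215 CPM and static 1 to 3 held 2188, 3384 and 825 CPM. The groups did not overlap, but the highest stretched library and static 3 were close. The log2 fold change was -2.06 ± 0.60 (95% interval -3.46 to -0.67), with an adjusted p of 0.0634 in edgeR, so Lpl did not pass with all 6 libraries. It did pass with the replicate number as a block (log2 fold change -2.02, edgeR adjusted p = 0.0238), in DESeq2 (adjusted p = 0.00112) and without static 3 (log2 fold change -2.45, edgeR adjusted p = 0.0127). It was not called without any other single library (edgeR adjusted p from 0.11 to 0.181).

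Nr1h3 (gene identifier 22259, chromosome 2, 91184061 to 91202829) separated the static libraries from each other. It held 40.4, 36.0 and 33.9 CPM in stretched 1 to 3 and 117, 149.6 and 26.7 CPM in static 1 to 3. Static 3 lay below every stretched library, and static 1 and 2 averaged 4.99 times its level. With all libraries the log2 fold change was -1.41 ± 0.53 (95% interval -2.64 to -0.18, edgeR adjusted p = 0.116), and DESeq2 gave an adjusted p of 0.0258. Without static 3 it was -1.86 (edgeR adjusted p = 0.00263), and without static 2 it was -0.97 (edgeR adjusted p = 0.321). The low Nr1h3 of static 3 went with its higher monocyte and neutrophil markers. The stretched libraries, also low in Nr1h3, had a summed monocyte level similar to that of static 3. Their neutrophil markers summed to 6375, 7371 and 12174 CPM, against 6716 CPM in static 2, where Nr1h3 was highest. The part of these cells in the result was not tested.

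Abca1 (gene identifier 11303, chromosome 4, 53030789 to 53159988) rose, while Nr1h3 did not. Nr1h2, the gene of LXR beta, did not pass with all libraries either (log2 fold change 0.46, edgeR adjusted p = 0.0866). Its stretched libraries (106 to 145 CPM) nonetheless lay above its static ones (87.0 to 98.7 CPM). Without static 3 Nr1h2 did pass (log2 fold change 0.52, edgeR adjusted p = 0.0429). For Abca1, stretched 1 to 3 held 365, 595 and 327 CPM and static 1 to 3 held 202, 218 and 212 CPM. The static libraries were nearly equal, static 3 included, and stretched 2 stood well above the other stretched ones. Abca1 went from 211 ± 8.14 to 429 ± 145 CPM (SD, n = 3), a 2.04-fold rise and a log2 fold change of 1.03 ± 0.24 (edgeR adjusted p = 0.038; 0.0457 with the replicate block). The call did not hold without stretched 1 (adjusted p = 0.083), stretched 2 (log2 fold change 0.69, adjusted p = 0.0885), static 1 (adjusted p = 0.131) or static 2 (adjusted p = 0.124).

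Abcg1 (gene identifier 11307, chromosome 17, 31057694 to 31117984), which exports cholesterol to mature high-density lipoprotein, did not follow Abca1. It held 53.4, 58.3 and 64.0 CPM in stretched 1 to 3 and 51.1, 68.5 and 167 CPM in static 1 to 3. Apart from static 3, which held 2.79 times the mean of the other static libraries, the levels of both groups ran together. The log2 fold change was -0.70 ± 0.40 (95% interval -1.64 to 0.24, edgeR adjusted p = 0.272) with all libraries and -0.03 (edgeR adjusted p = 0.894) without static 3.

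Apoe (gene identifier 11816, chromosome 7, 19696244 to 19701310), the apolipoprotein that macrophages secrete with cholesterol, was among the most abundant genes at 0.920% to 1.89% of each library. It held 16137, 15058 and 15222 CPM in stretched 1 to 3 and 9552, 8859 and 17043 CPM in static 1 to 3. The stretched libraries were close together and above static 1 and 2, and static 3 exceeded them all. The difference did not pass with all libraries (log2 fold change 0.39 ± 0.34, 95% interval -0.39 to 1.17, edgeR adjusted p = 0.463) or without static 3 (log2 fold change 0.75, edgeR adjusted p = 0.0558). Of its annotated neighbours, Apoc2, which encodes the cofactor of lipoprotein lipase, also had its highest level in static 3 and its lowest levels in static 1 and 2, with 36.0, 42.0 and 46.7 CPM in stretched 1 to 3 and 21.4, 15.5 and 121 CPM in static 1 to 3.

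**Figure D2:**
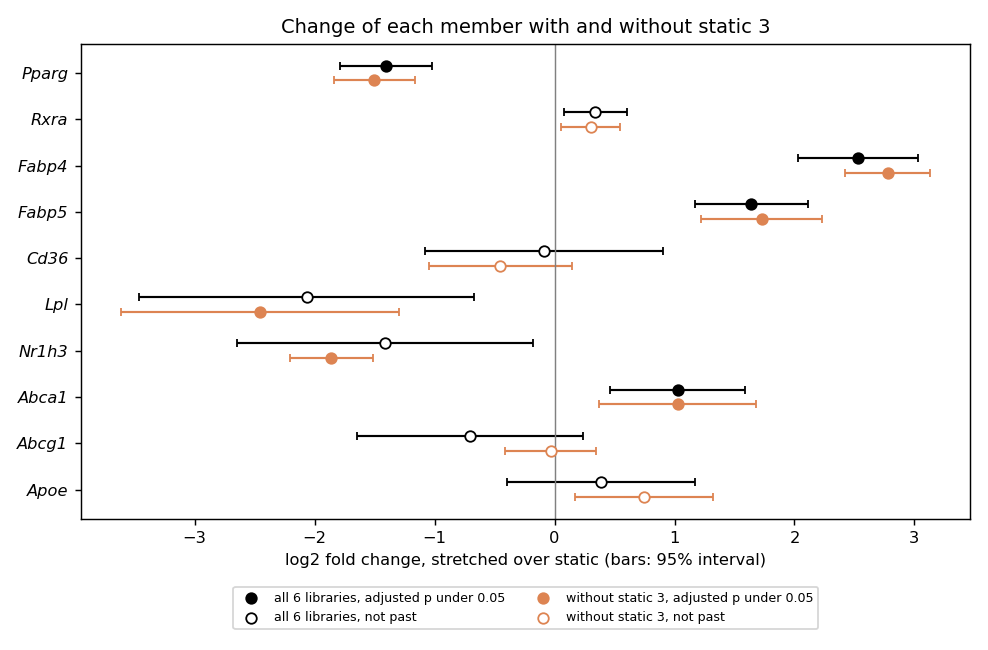
Log2 fold change of each gene, stretched over static (horizontal axis), with 95% intervals, from all 6 libraries and without static 3; filled points passed an adjusted p of 0.05 in edgeR. Pparg, Fabp4, Fabp5 and Abca1 are filled in both fits, and Lpl (-2.06 and -2.45) and Nr1h3 (-1.41 and -1.86) only without static 3.

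Per unit of transcript length (FPKM, the deposited normalised value), the order of the members differed between the groups. Among stretched libraries the median level was highest for Apoe (14345 FPKM), followed by Fabp5 (974 FPKM), Cd36 (269.6 FPKM), Fabp4 (228 FPKM), Lpl (127 FPKM), Abca1 (34.8 FPKM), Nr1h3 (20.4 FPKM), Rxra (16.1 FPKM), Abcg1 (9.05 FPKM) and Pparg (4.53 FPKM). In that group no neighbours in the order overlapped in range. Static libraries had median levels of 9546 FPKM for Apoe, 597 FPKM for Lpl, 448 FPKM for Cd36, 383 FPKM for Fabp5, 74.0 FPKM for Nr1h3, 38.8 FPKM for Fabp4, 22.6 FPKM for Abca1, 13.9 FPKM for Rxra, 13.7 FPKM for Pparg and 12.6 FPKM for Abcg1. There the ranges of Lpl and Cd36, Cd36 and Fabp5, Nr1h3 and Fabp4, Rxra and Pparg, and Pparg and Abcg1 overlapped. Within each static library Lpl was still above Cd36, at 597, 903 and 234 FPKM against 448, 457 and 157 FPKM in static 1 to 3. For the other overlapping pairs the order changed from one static library to another. Fabp4 stood above Lpl nowhere in static libraries and in all stretched ones.

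Each target was also set against its receptor within a library, as the log2 ratio of estimated counts, which does not depend on how libraries are scaled. The Fabp4 to Pparg ratio was 3.84, 3.82 and 3.62 across stretched 1 to 3, against -0.45, -0.56 and 0.43 across static 1 to 3. The groups were far apart, and the means differed by 3.95 on the log2 scale (exact two-sided permutation test, p = 0.1, the smallest that 3 against 3 allows; 0.2 adjusted over the 6 ratios). For Cd36 to Pparg the ratio was 6.39, 6.98 and 6.43 across stretched 1 to 3, against 5.69, 5.50 and 4.31 across static 1 to 3, higher in all stretched libraries by 1.43 (exact permutation p = 0.1, adjusted 0.2). Cd36 itself did not pass, so this difference contains the fall of Pparg. The Lpl to Pparg ratio overlapped between groups, at 6.44, 5.98 and 4.65 against 6.59, 6.98 and 5.36, with a difference of -0.62 (exact permutation p = 0.5, adjusted 0.6).

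On the LXR side the Abca1 to Nr1h3 ratio was 3.17, 4.05 and 3.27 across stretched 1 to 3, against 0.79, 0.54 and 2.99 across static 1 to 3. Static 3 was just below the lowest stretched library, and the mean difference was 2.06 (exact permutation p = 0.1, adjusted 0.2). It was 2.83 without static 3 and ranged from 1.61 to 2.83 with 1 library left out. Apoe to Nr1h3 differed by 1.53 (exact permutation p = 0.4, adjusted 0.6) and Abcg1 to Nr1h3 by 0.56 (exact permutation p = 0.8, adjusted 0.8), and for both static 3 had the highest ratio of all 6 libraries. Without static 3 these differences were 2.60 and 1.83, without static 1 they were 1.12 and -0.08, and without static 2 they were 0.88 and -0.05. With 6 libraries none of the ratios could reach an adjusted p of 0.05.

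**Figure D3:**
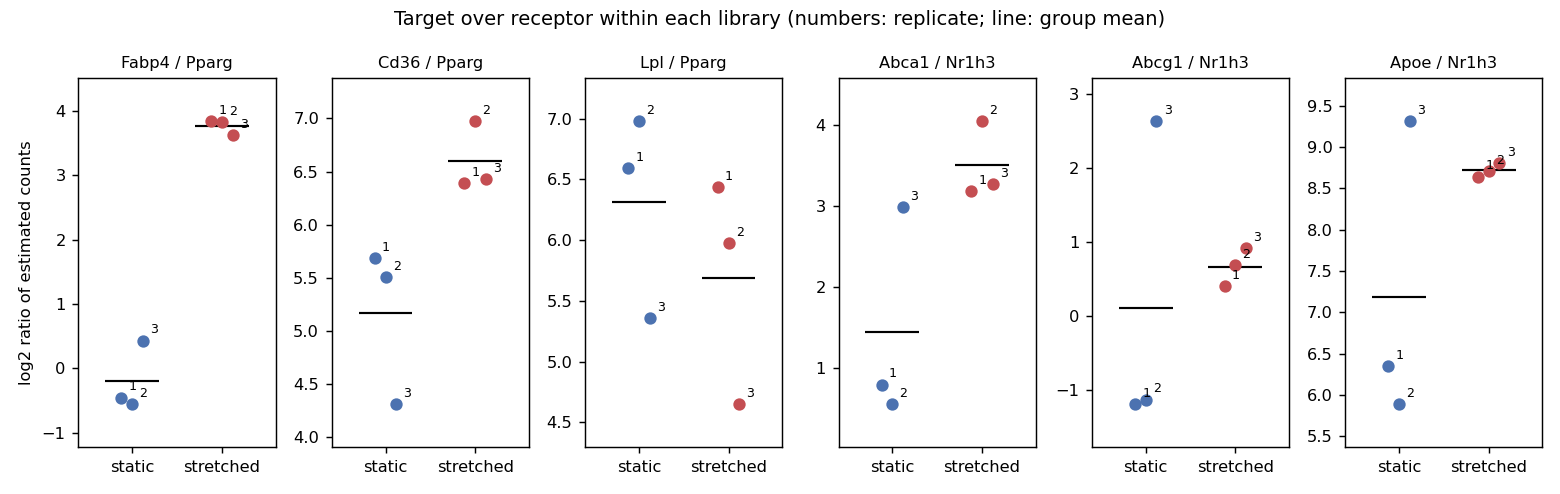
Log2 ratio of estimated counts of each target to its receptor (vertical axes) in the static and stretched libraries; points are libraries with their replicate number and lines are group means. Fabp4, Cd36 and Abca1 ratios do not overlap between groups, and static 3 is the highest library for Abcg1 (2.64) and Apoe (9.32) to Nr1h3.

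The transcript table lists 40 transcripts of the members, 31 of which were tested. In edgeR 0 of them passed (10 had an unadjusted p under 0.05, and DESeq2 called 9), against 1 of all 29604 tested transcripts (0.00338%), where 4567 of all had an unadjusted p under 0.05 and DESeq2 called 2737. Shares of a gene's counts between overlapping transcripts are estimates by the authors' counting tool, and are given as a description. Fabp4 counts came to 97.3% to 98.2% from 1 transcript, NM_024406.2, and Fabp5 counts to at least 99.5% from NM_010634.3, in every library. Pparg counts were split mainly between NM_001308354.1 (36.1% to 66.9%) and NM_001127330.2 (29.2% to 43.6%), and the groups overlapped for both.

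For Nr1h3, NM_001177730.1, whose GENCODE match begins at 91195116, made up 24.6%, 24.0% and 19.4% of the gene's counts across stretched 1 to 3, against 47.3%, 49.7% and 59.7% across static 1 to 3. For this share static 3 lay with the static libraries, unlike for the gene's level. XM_006499166.2 made up 40.4%, 39.7% and 41.9% across stretched 1 to 3, against 11.8%, 12.3% and 17.9% across static 1 to 3. The groups did not overlap for either share (exact permutation p = 0.1 each, the smallest possible), and both were picked after their values were seen. Among tested transcripts of genes with several, shares did not overlap for 9 of 29 of the members and for 15.4% of all 26023. The other 7 belong to Rxra, Fabp4, Fabp5 and Cd36, with smaller differences. Rxra NM_011305.3 held 13.7% to 19.3% in stretched against 10.2% to 11.4% in static libraries, and Cd36 XM_006535622.3 held 5.69% to 8.36% against 4.04% to 4.53%. NM_013839.4, whose match begins 81 bases downstream at 91195035, overlapped between groups (16.2% to 34.7% against 18.9% to 29.7%). As levels, NM_001177730.1 had a log2 fold change of -2.56 (edgeR adjusted p = 0.125 over all transcripts) and XM_006499166.2 one of 0.25 (edgeR adjusted p = 0.885).

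**Figure D4:**
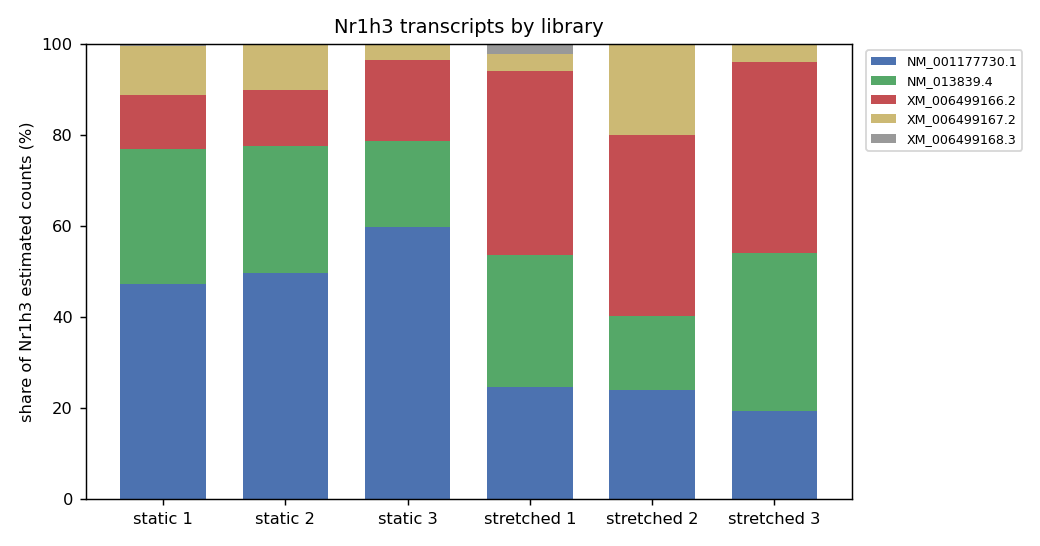
Share of Nr1h3 estimated counts in percent (vertical axis) held by each deposited transcript in each library; bars are libraries and colours are transcripts. NM_001177730.1 holds 47.3% to 59.7% in static and 19.4% to 24.6% in stretched libraries, while XM_006499166.2 holds 11.8% to 17.9% and 39.7% to 41.9%.

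The other genes of the pathways were taken from 8 lists, described by counts and medians. In these lists counts with 1 library left out follow the order stretched 1, 2, 3, static 1, 2, 3, and an unadjusted count is at p under 0.05 in edgeR. The counts with all libraries stand beside 6.55% of all tested genes higher and 5.38% lower in edgeR. An unadjusted p under 0.05 was reached by 31.7% of them, and DESeq2 called 10.8% higher and 9.96% lower. Of 6 tested PPAR, LXR and RXR receptor genes, which include the members Pparg, Rxra and Nr1h3, Ppard rose and Pparg fell. Ppard, the receptor for which Fabp5 can carry ligand, went from 32.9 ± 7.21 to 74.5 ± 17.7 CPM (SD, n = 3), by 1.18 ± 0.22 (edgeR adjusted p = 0.0246). In the left-out fits receptor genes that rose numbered 0, 0, 1, 0, 0 and 2 (1 to 4 at an unadjusted p, 1 by DESeq2), and those that fell 1, 0, 1, 1, 0 and 2 (1 or 2 unadjusted, 2 by DESeq2). Nr1h2, the gene of LXR beta, had a log2 fold change of 0.46 (edgeR adjusted p = 0.0866), and 0.52 without static 3 (edgeR adjusted p = 0.0429).

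Of 15 tested coregulators, which bind these receptors, 0 rose in edgeR (1 at an unadjusted p, 1 by DESeq2, 1 without static 3) and 2 fell, with a list median of -0.16 against -0.002 for all genes (-0.36 against -0.19 with libraries scaled by size alone). Gps2, a subunit of a corepressor complex, fell by 0.68 (SE 0.135, edgeR adjusted p = 0.0259). It held 33.5, 31.2 and 38.2 CPM in stretched 1 to 3 and 54.0, 59.3 and 51.7 CPM in static 1 to 3, with no overlap. With the replicate number as a block it did not pass (edgeR adjusted p = 0.0514) and 0 coregulators fell (4 at an unadjusted p), and in the left-out fits the falls numbered 0, 0, 1, 0, 0 and 3 (2 to 5 unadjusted, 4 by DESeq2).

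Of 19 other PPAR target genes, 3 rose and 0 fell in edgeR (3 lower at an unadjusted p, 1 by DESeq2). Fabp3, another fatty acid carrier, rose from 3.58 ± 1.70 to 19.6 ± 10.7 CPM (SD, n = 3), by 2.45 ± 0.54 (edgeR adjusted p = 0.0327), and its stretched 3 library held 7.31 CPM against 27.0 and 24.6 CPM in stretched 1 and 2. Acadl, a mitochondrial fatty acid dehydrogenase gene, rose by 0.89 ± 0.15 (edgeR adjusted p = 0.0193). Angptl4, an inhibitor of lipoprotein lipase, rose by 0.95 ± 0.18 (edgeR adjusted p = 0.0246; 0.0514 with libraries scaled by size alone). Plin2, a lipid droplet coat gene and common PPAR reporter, did not pass (0.68 ± 0.52, edgeR adjusted p = 0.405). The median of the list was 0.10, and -0.09 with libraries scaled by size alone. Its rises numbered 1, 0, 3, 0, 0 and 4 in the left-out fits (4 to 6 unadjusted, 6 by DESeq2). With the replicate block Pdk4, an inhibitor of pyruvate oxidation, fell (-1.19, edgeR adjusted p = 0.0448).

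Of 15 tested genes listed as other LXR targets, only Mertk rose and 0 fell in edgeR (1 lower at an unadjusted p, 1 by DESeq2). Mertk, a receptor for apoptotic cells, went from 39.0 ± 4.79 to 68.6 ± 18.8 CPM (SD, n = 3), by 0.81 ± 0.21 (edgeR adjusted p = 0.0479; 0.056 with the replicate block). This list depended on static 3 more than the PPAR list did by count: without that library 8 rose and 0 fell, where 16.1% of all tested genes rose. Besides Mertk these were Abca7, Apoc2, Mylip, Scd1, Scd2, Pltp and Nr1h2, named after their values were seen. Of these Nr1h2 is the gene of LXR beta itself and is counted in the receptor list too. Mylip, which marks lipoprotein receptors for degradation, held 47.0, 57.9 and 26.7 CPM in stretched 1 to 3 and 19.0, 20.7 and 62.5 CPM in static 1 to 3. Abca7, a lipid transporter gene, held 126, 132 and 111 CPM in stretched 1 to 3 and 50.6, 55.2 and 124 CPM in static 1 to 3. For both, static 1 and 2 were below every stretched library and static 3 was not. The lipid synthesis regulator Srebf1 did not pass with all libraries (0.20, adjusted p = 0.456) or without static 3 (0.25, edgeR adjusted p = 0.317). The list median was 0.20, and -0.01 with libraries scaled by size alone. Its rises numbered 0, 0, 0, 0, 0 and 8 in the left-out fits (1 to 9 unadjusted, 1 by DESeq2).

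**Figure D5:**
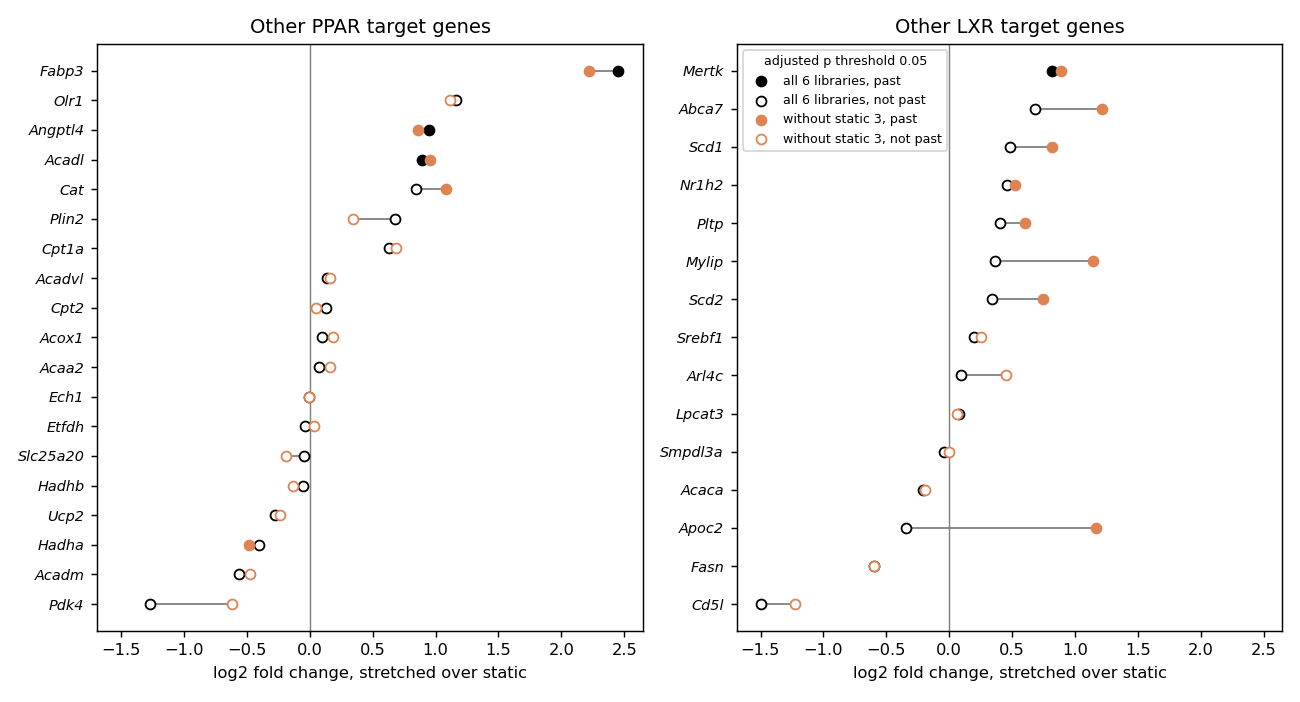
Log2 fold change, stretched over static (horizontal axes), of the tested PPAR and LXR target genes outside the 10 members, from all 6 libraries and without static 3, joined by a line; filled points passed an adjusted p of 0.05 in edgeR. Filled points number 3 and 4 in the PPAR list and 1 and 8 higher in the LXR list, with 1 lower PPAR gene (Hadha) without static 3.

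Genes of fatty acid activation and of lipid storage held further rises. Of 14 tested genes of uptake and activation 2 rose and 0 fell in edgeR (1 lower at an unadjusted p, 0 by DESeq2): Acsl1, which activates fatty acids, by 1.88 ± 0.34 (edgeR adjusted p = 0.0219) and Vldlr, a lipoprotein receptor, by 0.90 ± 0.15 (edgeR adjusted p = 0.0204). Of 20 genes of triglyceride storage and lipolysis 3 rose and 0 fell in edgeR (1 lower at an unadjusted p, 1 by DESeq2). Hilpda, a hypoxia-induced inhibitor of triglyceride lipase, rose most, from 8.08 ± 2.41 to 118 ± 55.4 CPM (SD, n = 3), by 3.86 ± 0.45 (edgeR adjusted p = 0.0122), and the droplet coat gene Plin3 rose by 0.58 ± 0.12 (edgeR adjusted p = 0.0276; 0.085 with libraries scaled by size alone). The third was Angptl4, given above. The list medians were 0.37 and 0.22, and 0.17 and 0.019 with libraries scaled by size alone. Left-out counts of rises were 0, 0, 2, 0, 0 and 3 for uptake and activation (2 to 7 unadjusted, 3 by DESeq2) and 1, 0, 2, 1, 0 and 6 for storage and lipolysis (3 to 10 unadjusted, 5 by DESeq2).

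Sterol storage and transport genes had 4 of 16 higher and 0 lower (0 lower at an unadjusted p and by DESeq2), with a median of 0.39 (0.20 with libraries scaled by size alone). They were Tspo, a mitochondrial membrane protein gene (1.39 ± 0.17, edgeR adjusted p = 0.0137), the lysosomal cholesterol transporters Npc1 (0.85 ± 0.13, edgeR adjusted p = 0.0179) and Npc2 (1.21 ± 0.23, edgeR adjusted p = 0.0241), and the cholesterol esterifying enzyme Soat1 (0.69 ± 0.14, edgeR adjusted p = 0.0289). Their number was 1, 0, 3, 0, 0 and 7 in the left-out fits (5 to 9 unadjusted, 5 by DESeq2).

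Of 16 tested genes listed as acting upstream of Pparg in macrophages, 5 rose and 0 fell in edgeR (0 lower at an unadjusted p and by DESeq2). Over all tested genes 6.55% rose and 5.38% fell. The list was not divided by whether a gene raises or lowers Pparg, so its rises are not set against the fall of Pparg. The interleukin-13 receptor gene Il13ra1 held 90.5, 128 and 80.04 CPM in stretched 1 to 3 and 39.2, 41.2 and 47.9 CPM in static 1 to 3 (1.22 ± 0.20, edgeR adjusted p = 0.0193). The transcription factor genes Bhlhe40 (1.51 ± 0.18, edgeR adjusted p = 0.0122) and Bhlhe41 (1.93 ± 0.31, edgeR adjusted p = 0.0193) rose, as did Cebpb (1.205 ± 0.197) and the granulocyte-macrophage colony-stimulating factor receptor chain Csf2rb (0.89 ± 0.17). The list median was 0.33 (0.13 with libraries scaled by size alone). Rises numbered 1, 0, 5, 1, 0 and 7 in the left-out fits (5 to 7 unadjusted, 5 by DESeq2).

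The tested genes whose pattern over the 6 libraries was closest to each receptor were ranked by the root-mean-square difference of mean-centred log2 CPM among 10214 other genes of at least 5 CPM. Nearest to Pparg were Ptpn7 (0.13), a phosphatase gene of blood cells, Ap1s2 (0.15), a clathrin adaptor gene, and Cmtr2 (0.16), a cap methyltransferase gene. Nearest to Nr1h3 were Gpr85 (0.12), an orphan receptor gene, Etv5 (0.25), an ETS transcription factor gene, and Gm5150 (0.25). Gpr85 held 9.09, 6.40 and 7.08 CPM in stretched 1 to 3 and 20.9, 30.1 and 5.59 CPM in static 1 to 3, the same order of static libraries as Nr1h3.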

How the data were processed

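Per the labels' protocols, total RNA went into 6 libraries by a SMARTER kit for mRNA. The deposited tables hold estimated counts per gene and per transcript made by the authors, not normalised, and the authors' normalised value, taken as FPKM because it equals the count per effective length and library total. GRCm38 and mm10 are named in the submitters' processing notes. For the aligner, the counting tool, the strandedness and the division of reads between near-identical or overlapping genes, nothing is given in the sources used here. Of the 16906 gene identifiers 16802 were in the RefSeq table of GRCm38.p6, the source of coordinates and promoters. Transcript starts are from GENCODE.

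Counts were rounded, filtered (edgeR filterByExpr, minimum count 10) and tested with edgeR 4.0.16 in R 4.3.3 (quasi-likelihood, TMM, Benjamini-Hochberg over all 12892 tested genes, threshold 0.05). The test was tried on simulated data. Standard errors come from the F statistic. DESeq2 1.42.0 and limma 3.58.1 (log2 of FPKM plus 0.1 or 1) were alternatives. Ratios used counts plus 0.5. The members and lists were chosen with earlier results of these data known. Besides the members, up to 3 genes past the threshold with the smallest p were named per list, except 1 gene that is not reported here; Nr1h2, Plin2, Pdk4, Srebf1, Soat1, Cebpb, Csf2rb, Hadha and the LXR targets that passed without static 3 were chosen after their values were seen. Replicate numbers are in the titles, and deviations from group means correlated at 0.286, 0.183 and 0.182 within numbers 1, 2 and 3, so a fit with the number as a block is given where it changes a call.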

Additional observations from a re-analysis of the deposited data

How the results depend on the processing

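With 3 libraries a group, calls near the threshold changed when a library was left out, and Pparg rests on 136 to 489 counts per library. The cause of the changes below was not tested. With 1 library left out, all tested genes higher ranged from 0 to 2095 and lower from 0 to 2011, members higher from 0 to 3 and lower from 0 to 3. Log2 fold changes ranged from -1.50 to -1.29 for Pparg, 2.39 to 2.78 for Fabp4, 1.48 to 1.73 for Fabp5, 0.69 to 1.16 for Abca1, -2.45 to -1.57 for Lpl, -1.86 to -0.97 for Nr1h3 and -0.45 to 0.15 for Cd36, and the Abcg1 to Nr1h3 ratio from -0.085 to 1.83. List counts ranged from 0 to 2 higher and 0 to 2 lower (receptors), 0 to 1 and 0 to 3 (coregulators), 0 to 4 and 0 to 1 (PPAR targets), 0 to 8 higher (LXR targets), 0 to 3 higher (uptake), 0 to 6 and 0 to 2 (storage), 0 to 7 higher (sterol transport) and 0 to 7 higher (upstream signals).

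DESeq2 called 1398 genes higher and 1284 lower and 3 members lower, with Lpl (-2.07) and Nr1h3 (-1.42) past the threshold. In the lists it called 1 coregulator higher and 4 lower, 2 receptors lower, 6 PPAR targets higher and 1 lower, 1 LXR target lower, and 5 storage genes higher and 1 lower. Scaling by library size alone gave 556 genes higher and 1297 lower, 2 members lower with Lpl (-2.26) past the threshold, 4 coregulators and 1 PPAR target lower, 0 LXR targets higher, and 1 storage gene higher and 1 lower. limma on FPKM gave 529 higher and 1203 lower with a pseudocount of 0.1, and 523 and 1197 with 1. Both pseudocounts gave 2 members lower with Lpl (-2.21 and -2.20) past the threshold, 0 LXR targets and 1 uptake gene higher, and 1 PPAR target and 1 storage gene lower, and a pseudocount of 1 gave 1 storage gene higher. Without the filter 1 coregulator was lower. The replicate block gave 408 genes lower, 2 members lower with Lpl (-2.02) past the threshold, a Cd36 change of 0.036, 0 LXR targets higher, 0 coregulators lower and 1 PPAR target lower. It changed no other member's call.

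The median of the PPAR target list turned to -0.0937 with library size alone and -0.105 and -0.0993 with limma, and ranged from -0.021 (without stretched 3) to 0.16 with 1 library left out. The medians of receptors (-0.0050) and LXR targets (-0.0072) turned with library size alone. The Cd36 transcript XM_006535621.3 turned to 0.087 with the block and 0.13, 0.22 and 0.091 without static 1, static 2 and stretched 1 (left-out range -0.46 to 0.22), and the Nr1h3 transcript XM_006499166.2 to -0.14 without static 3 (left-out range -0.14 to 0.65).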
